A study of Mus musculus with 12 samples.

Results

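The clustered histone genes encode the histones that cells make while they copy their DNA: the core histones H2A, H2B, H3 and H4 and the linker histone H1. They were followed in mouse intestinal epithelial cells (IECs) from the small intestine (ileum, S-IECs) and the colon (L-IECs), released with EDTA and hybridised to Affymetrix whole-transcript arrays. Each tissue had 3 arrays from Nfat5fl/fl mice, which carry floxed Nfat5 alleles and no Cre, and 3 from Nfat5IEC-KO mice, which carry the same alleles with a Vil-Cre transgene, whose Villin promoter drives Cre in the intestinal epithelium and not in other cells of the mucosa. All mice were untreated and 11 weeks old. NFAT5 is a transcription factor best known for the response to hypertonic stress, and the arrays asked which genes depend on it in the epithelium.

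The members were the transcript clusters (probe sets read as 1 value each) of genes whose older symbol begins with Hist1h, Hist2h, Hist3h or Hist4h. The platform annotation lists these genes under their current names, such as H1f5 or H2bc12, so the older names were matched through Entrez gene identifiers. The match gave 70 of the 41345 clusters on the array, and 25341 of those 41345 carry a gene symbol. Together the 70 clusters name 69 genes, of which 55 lie on chromosome 13 (the Hist1 locus), 10 on chromosome 3 (Hist2), 3 on chromosome 11 (Hist3) and 1 on chromosome 6 (Hist4). By class there were 5 H1 clusters, 20 H2A, 18 H2B, 12 H3, 14 H4 and 1 that names H1f4 together with H2B genes. Only 32 clusters carry 1 symbol, and the other 38 carry up to 13 symbols each, among them all 12 H3 clusters. Paralogs of 1 class have near-identical coding sequences, so a cluster with several symbols cannot be assigned to 1 gene, and probes of a 1-symbol cluster may bind a paralog too. Such a cluster is named here by its first symbol, its number of genes and its platform number. In 3 pairs of clusters all 12 values were the same, which left 67 distinct clusters.

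Replication-dependent histone genes are transcribed in S phase. Their mRNAs carry no poly(A) tail and end in a stem-loop that is bound by SLBP and formed by cleavage near the U7 small nuclear ribonucleoprotein, and they are degraded when DNA synthesis stops. In the intestine, DNA is copied in the crypts, by stem cells and their dividing progeny, while the absorptive cells of the villus and the colonic surface no longer divide. The labelling kit primes along the whole transcript, so mRNAs without a poly(A) tail are read as well.

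Promoters of histone genes are known for short shared elements, and those of 5 of the 6 H1 genes (all but the testis gene H1f6) and of 4 H2A and H2B genes that the results turn on are shown here. These are the 130 bases before the RefSeq start on GRCm38.p6, 5′ to 3′, with the CCAAT box (CCAAT), the TATA box (TATAAA), the octamer (ATTTGCAT) and the H1 box (AAACACA) in capitals on either strand. No letter string of the 4 contains another.
H1f5: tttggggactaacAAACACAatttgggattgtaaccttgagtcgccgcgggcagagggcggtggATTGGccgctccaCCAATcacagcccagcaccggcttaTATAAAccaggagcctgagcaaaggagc
H1f1: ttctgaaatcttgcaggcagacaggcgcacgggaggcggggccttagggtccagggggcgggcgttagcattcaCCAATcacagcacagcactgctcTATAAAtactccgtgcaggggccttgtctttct
H1f2: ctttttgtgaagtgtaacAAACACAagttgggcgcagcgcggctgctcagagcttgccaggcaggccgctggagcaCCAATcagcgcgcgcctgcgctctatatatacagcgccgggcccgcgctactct
H1f3: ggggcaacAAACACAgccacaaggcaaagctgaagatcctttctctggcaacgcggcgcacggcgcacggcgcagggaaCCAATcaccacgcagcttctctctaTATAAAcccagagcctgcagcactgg
H1f4: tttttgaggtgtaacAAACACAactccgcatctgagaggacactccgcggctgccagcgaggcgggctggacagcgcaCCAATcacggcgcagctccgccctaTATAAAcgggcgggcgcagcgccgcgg
H2bc12: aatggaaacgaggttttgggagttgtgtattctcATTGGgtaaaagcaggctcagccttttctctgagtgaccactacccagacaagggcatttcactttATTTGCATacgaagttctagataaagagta
H2bc3: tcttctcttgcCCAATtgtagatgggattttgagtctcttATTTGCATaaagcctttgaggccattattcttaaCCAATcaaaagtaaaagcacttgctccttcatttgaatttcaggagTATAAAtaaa
H2bc18: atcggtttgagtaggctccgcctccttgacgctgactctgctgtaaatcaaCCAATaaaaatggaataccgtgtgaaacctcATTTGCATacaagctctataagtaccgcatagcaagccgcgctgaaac
H2ac21: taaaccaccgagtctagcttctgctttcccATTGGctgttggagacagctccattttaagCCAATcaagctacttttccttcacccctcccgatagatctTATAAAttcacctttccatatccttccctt
The windows lie as follows: H1f5 at chr13:21780626-21780755 (minus strand), H1f1 at chr13:23763538-23763667 (plus strand), H1f2 at chr13:23738677-23738806 (plus strand), H1f3 at chr13:23554902-23555031 (plus strand), H1f4 at chr13:23622559-23622688 (minus strand), H2bc12 at chr13:22035691-22035820 (plus strand), H2bc3 at chr13:23746604-23746733 (plus strand), H2bc18 at chr3:96269570-96269699 (plus strand) and H2ac21 at chr3:96219755-96219884 (plus strand).

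In windows of 250 bases before the start, searched on both strands, CCAAT was found in 52 of 63 promoters of 62 member genes (82.5%) and in 33.8% of all 32851 promoters of the RefSeq table. All 6 H1, 18 H2A and 17 H2B promoters held it, against 8 of 10 H3 and 3 of 12 H4 promoters. TATAAA was in 46% of the member promoters and 12.4% of all. The octamer stood in 7 of 18 H2A and 7 of 17 H2B promoters and in 0 of the H1, H3 and H4 promoters, which made 22.2% against 1.6% of all. The H1 box was in 5 of 6 H1 promoters, and over all members in 14.3% against 6.25%. Several H2A and H2B genes lie head to head, so the windows of such a pair can overlap. A match of letters is no measured binding site.

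Nfat5 itself read 8.08 ± 0.08 on Nfat5fl/fl and 7.98 ± 0.13 on the S-IEC arrays labelled Nfat5IEC-KO (SD, n = 3 each), which overlapped (difference -0.10, SE 0.12, adjusted p = 0.763), so those arrays are named by their label. In L-IECs it read 7.49 ± 0.04 and 6.94 ± 0.05 (SD, n = 3 each) without overlap (difference -0.55, SE 0.09, adjusted p = 0.544). No source used here says which Nfat5 exons the probes read. The labelled tissues differed in their defining markers, with Paneth markers at a mean of 10.29 to 10.62 in S-IECs and 4.96 to 5.74 in L-IECs of Nfat5fl/fl mice, and colonocyte markers at 7.49 to 8.66 and 11.13 to 11.18. Array medians ran from 4.49 to 4.57, and arrays of 1 group correlated with a Pearson r of 0.988 to 0.992 across clusters. The titles number a mouse for each array, and the precision is limited by the 3 arrays of a group.

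In S-IECs, most histone clusters read lower on the arrays labelled Nfat5IEC-KO than on the Nfat5fl/fl arrays. Of the 70 clusters 55 had a log2 difference below 0 (47.1% of all clusters tested), and their median was -0.29, against 0.01 over all 25341. At the unadjusted limma threshold of 0.05, 26 histone clusters (37.1%) were lower, where 8.23% of all clusters were, and 3 were higher, where 5.81% of all were. With clusters of the same values counted once, 23 of 67 were lower. After Benjamini-Hochberg adjustment over 25341 clusters, 0 histone clusters passed 0.05 in either direction. In that comparison 0 clusters of the whole table passed as lower (0%) and 2 as higher (0.00789%), and the smallest adjusted p of a histone cluster was 0.137. With all 12 arrays in 1 fit 8 histone clusters passed the adjusted threshold, all lower, where 571 of all 25341 clusters passed. With eBayes trend and robust 1 histone cluster passed, H1f5, where 480 of all did. By the methods' t-test on the same values 10 histone clusters were lower at the unadjusted threshold. After adjustment 0 passed by that test, as did 0 of all clusters. Whether cells that copy DNA were fewer or held less histone mRNA per cell cannot be told apart in such samples.

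The lower readings lay among the brighter clusters. Of 41 histone clusters whose mean over the 12 arrays was above the median cluster of the table (a log2 value of 4.53), 24 were lower (58.5%), and 1 was higher. Of all clusters above that level, 12.9% were lower and 6.35% higher, and of all clusters at or below it 2.46% were lower. Among the 29 dim histone clusters, 2 were lower and 2 higher. In 16 of the 70 clusters the 3 arrays labelled Nfat5IEC-KO lay below all 3 Nfat5fl/fl arrays (10.4% of all clusters), and in 2 they lay above them (9.8% of all).

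**Figure D1:**
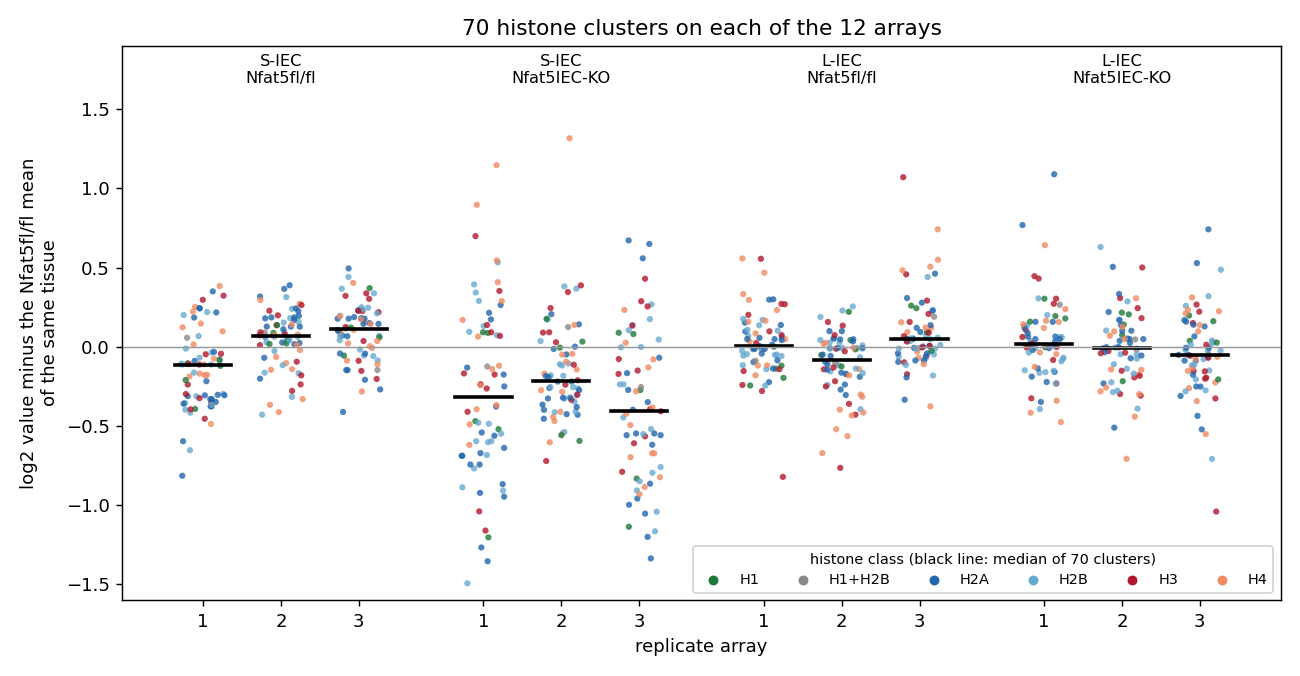
Each point is 1 of the 70 histone clusters on 1 array, as its log2 value minus the Nfat5fl/fl mean of the same tissue. Black lines are the medians over the 70 clusters. On S-IEC arrays labelled Nfat5IEC-KO the medians were -0.32, -0.22 and -0.40 for replicates 1, 2 and 3, and on L-IEC arrays of Nfat5IEC-KO mice they were 0.02, -0.01 and -0.05.

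The arrays labelled Nfat5IEC-KO were not alike. Averaged over the 70 clusters, their log2 values lay 0.288, 0.156 and 0.394 below the Nfat5fl/fl mean in replicates 1, 2 and 3 (mean deviations of -0.29, -0.16 and -0.39). The Nfat5fl/fl arrays themselves deviated by -0.14, 0.04 and 0.09, so Nfat5fl/fl replicate 1 and Nfat5IEC-KO replicate 2 lay close together. Below all 3 Nfat5fl/fl arrays were 37, 28 and 42 histone clusters on Nfat5IEC-KO replicates 1, 2 and 3, against 29.7%, 26.9% and 28.7% of all clusters on the same arrays. Replicates 1, 2 and 3 were the highest of the 3 in 20, 37 and 13 of the 70 clusters, a count that was not made over all clusters. Each array was also left out in turn. Without Nfat5IEC-KO replicate 2, 30 histone clusters were lower at the unadjusted threshold, with a median of -0.32. In that run 1 histone cluster, H2ac21 (17400539), passed the adjusted threshold at a log2 difference of -1.13 (adjusted p = 0.0454), where 226 of all 25341 clusters passed. Shares of all clusters at the unadjusted threshold are not given for the runs that left out 1 array. Without Nfat5fl/fl replicate 3 the count was 18, the smallest of the 6 runs that left out 1 array, and without Nfat5fl/fl replicate 1 it was 31, the largest. Of the 18 named clusters past the unadjusted threshold in S-IECs, 16 passed without each array in turn. The exceptions were an H4f16 cluster (17548561) and an H3c13 cluster of 8 genes (17291183). Clusters were named in part for a small p in this same comparison, so their passing again is no separate support.

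H1 is the linker histone, which binds the nucleosome where DNA enters and leaves it, and its clusters split. H1f5 read 7.55, 7.96 and 8.31 on the Nfat5fl/fl arrays and 6.74, 7.38 and 6.81 on the arrays labelled Nfat5IEC-KO. All 3 of the latter were lower, with a log2 difference of -0.97 (SE 0.22, adjusted p = 0.137) or 1.95-fold. H1f1 was dim, at 4.58 ± 0.18 (SD, n = 3) against 3.94 ± 0.18 (SD, n = 3), and again the groups did not overlap (difference -0.63, SE 0.14, adjusted p = 0.137). H1f2, the brightest H1 cluster, stood at 8.70 ± 0.11 (SD, n = 3) and 8.76 ± 0.05 (SD, n = 3). Its 2 groups overlapped, and the difference of 0.05 (SE 0.11) was within the spread of the replicates. The difference for H1f3 was -0.25 (adjusted p = 0.496), for the H1f4 cluster of 4 genes (17291195) -0.08 (adjusted p = 0.834), and for H1f6, the H1 of the testis, which was dim, 0.12 (adjusted p = 0.691). Of the promoters shown, that of H1f1 lacks the AAACACA letters and those of the other H1 genes hold them, so the letters did not divide the lower clusters from the rest.

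H2A had the most lower clusters, 11 of 20 (8.23% of all clusters), with a median difference of -0.48 and 0 higher (5.81% of all). Among the 11, clusters 17285703 and 17291023 have the same values on every array, as do 17400545 and 17408017. H2ac21 of the Hist2 locus read 6.89, 7.44 and 7.26 on Nfat5fl/fl arrays and 5.93, 6.77 and 6.20 on arrays labelled Nfat5IEC-KO. The groups did not overlap (difference -0.90, SE 0.22, adjusted p = 0.143), and a second, dim H2ac21 cluster (17408008) was lower as well, by a log2 difference of -0.47 (adjusted p = 0.216). H2ac10, a bright cluster, went from 10.46 ± 0.33 (SD, n = 3) to 9.70 ± 0.36 (SD, n = 3). Its values overlapped by 1 array, since replicate 2 of the arrays labelled Nfat5IEC-KO (10.10) reached replicate 1 of Nfat5fl/fl (10.09), and the difference was -0.76 (adjusted p = 0.168). H2ac20 was lower at the unadjusted threshold, by a log2 difference of -0.81 (adjusted p = 0.186) without overlap. The clusters shared by H2ac18, H2ac19 and H2ac20, whose values are the same in both copies, had a difference of -0.54 (adjusted p = 0.211). The 7 H2A clusters that name the same 10 genes ranged from -0.99 for the H2ac11 cluster (17291057) to 0.25 for an H2ac23 cluster (17285677), and 3 of them were lower.

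H2B, the partner of H2A in the nucleosome, had 8 of 18 clusters lower (8.23% of all clusters) and 1 higher (5.81% of all), with a median of -0.32. Among the 8, clusters 17285710 and 17291014 have the same values on every array. The largest genotype difference of any member in S-IECs was that of H2bc12, at 7.21, 7.87 and 7.81 on Nfat5fl/fl arrays and 6.14, 7.09 and 6.59 on arrays labelled Nfat5IEC-KO. That is a log2 difference of -1.02 (SE 0.25, adjusted p = 0.143) or 2.03-fold, with no overlap. For H2bc3 the arrays read 7.04, 7.55 and 7.59 against 6.51, 6.98 and 6.23, a difference of -0.82 (SE 0.21, adjusted p = 0.156) that again left a gap between the groups. The bright H2bc6 cluster of 12 genes (17285691) went from 11.62 ± 0.28 (SD, n = 3) to 10.90 ± 0.32 (SD, n = 3), a difference of -0.72 (adjusted p = 0.164), and H2bc18 had a difference of -0.56 (adjusted p = 0.209). In the opposite direction the H2bc4 cluster (17285851), shared with H2bc8 and H2bc6, read 9.49 ± 0.08 (SD, n = 3) and 9.80 ± 0.12 (SD, n = 3). Its 3 arrays labelled Nfat5IEC-KO all lay above the Nfat5fl/fl arrays (difference 0.32, adjusted p = 0.27). A second cluster of the same 3 genes (17285834) had a difference of -0.27 (adjusted p = 0.721). H2bc21, at 5.12 ± 0.20 (SD, n = 3) and 5.08 ± 0.42 (SD, n = 3), overlapped.

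H3 and H4 form the inner tetramer of the nucleosome, and several clusters of both classes were dim. Of all clusters at or below the median cluster of the table, 2.46% were lower. Of 12 H3 clusters 2 were lower (8.23% of all clusters) and 1 higher (5.81% of all) at the unadjusted threshold, with a median of -0.08. The 8 clusters that name the same 8 H3 genes did not read alike. Their differences ran from -0.71 for 17400555 (7.62 ± 0.27 against 6.91 ± 0.38, SD, n = 3 each, adjusted p = 0.18) to 0.51 for 17400559, a dim cluster at 3.34 ± 0.23 against 3.85 ± 0.17 (SD, n = 3 each, adjusted p = 0.187). Of 14 H4 clusters 3 were lower (8.23% of all) and 1 higher (5.81% of all), with a median of -0.21. The H4c17 cluster of 6 genes (17285706) read 6.01, 6.26 and 6.28 on Nfat5fl/fl arrays and 5.57, 5.90 and 5.49 on arrays labelled Nfat5IEC-KO, a difference of -0.53 (SE 0.14, adjusted p = 0.162) without overlap. H4f16, the gene of the Hist4 locus, had 1 cluster lower (17548561, difference -0.51, adjusted p = 0.24) and 1 not past the threshold (17472159, difference -0.11, adjusted p = 0.794). The higher H4 cluster, of 13 genes (17285846), was dim in S-IECs, at 2.73 ± 0.36 and 3.63 ± 0.58 (SD, n = 3 each, difference 0.90, adjusted p = 0.209), and its groups overlapped.

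By locus, all 8 clusters of Hist2 alone had a difference below 0 (47.1% of all clusters), with a median of -0.54. At the unadjusted threshold 6 were lower (8.23% of all). The 6 include 17400545 and 17408017, which have the same values, and both H2ac21 clusters. The 3 Hist3 clusters, all dim, had differences of 0.21 for H2aw, -0.16 for the H2bu2 cluster of 2 genes and 0.03 for H2bu1-ps, and 0 passed. The testis histones H2ac1 and H2bc1 had differences of 0.18 (adjusted p = 0.76) and 0.14 (adjusted p = 0.704). Of the clusters with 1 symbol 11 of 32 were lower in S-IECs (8.23% of all clusters), with a median of -0.28. Of those with several symbols 15 of 38 were, with a median of -0.29.

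**Figure D2:**
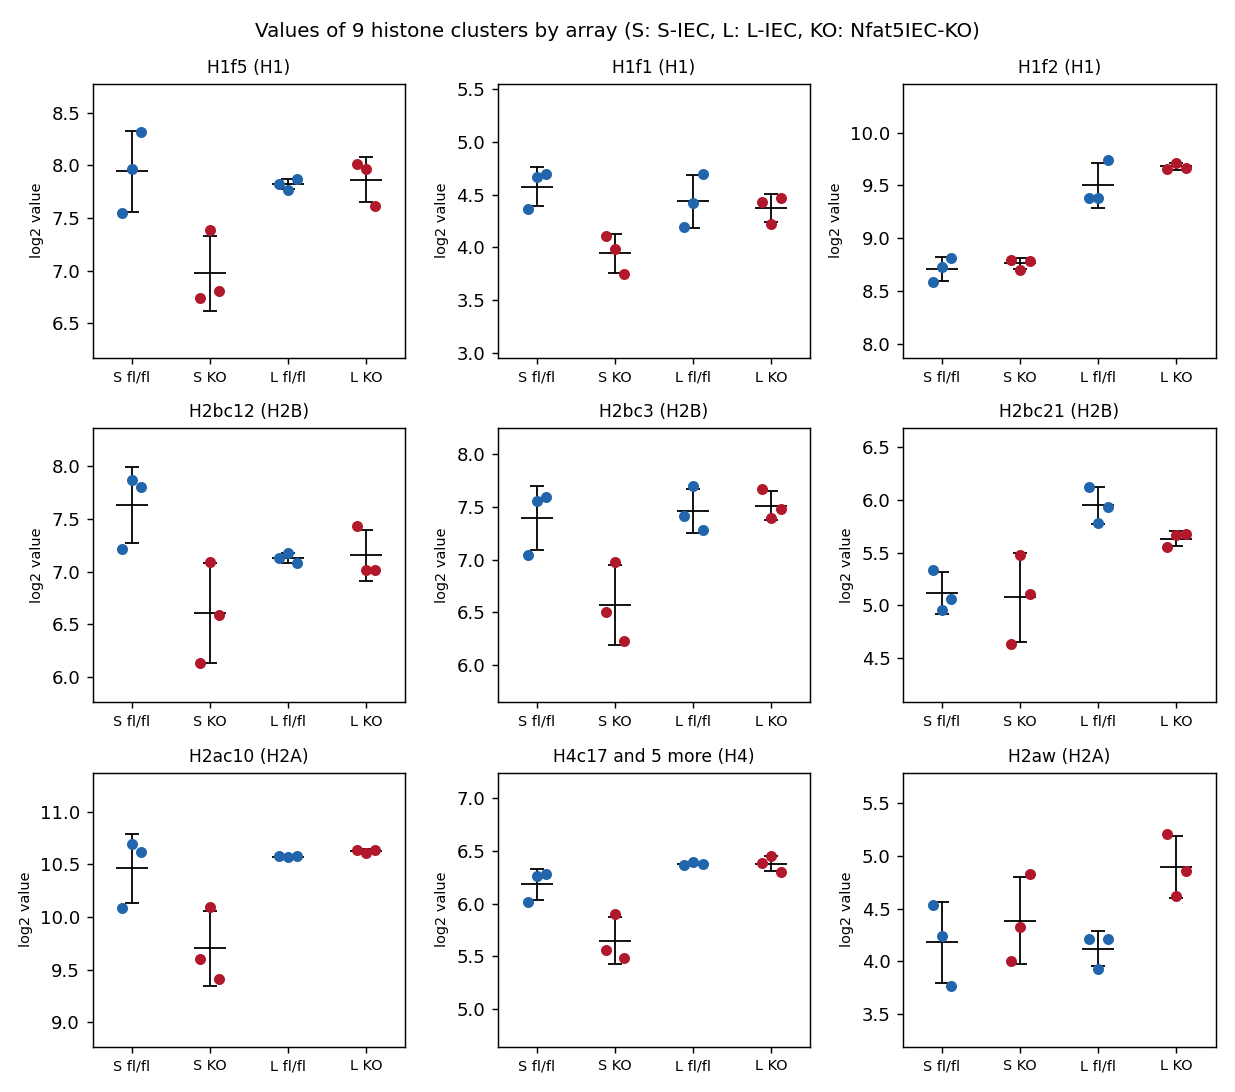
Log2 values of 9 histone clusters on each array, with the mean and SD of each group (n = 3) and every panel spanning the same range on the y axis. H1f5, H1f1, H2bc12, H2bc3 and the H4c17 cluster of 6 genes have 3 S-IEC arrays labelled Nfat5IEC-KO below all S-IEC Nfat5fl/fl arrays, H2ac10 overlaps by 1 array, H1f2 and H2bc21 overlap in S-IECs, and H2aw is higher in L-IECs of Nfat5IEC-KO mice.

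In L-IECs the histone clusters stayed close to their Nfat5fl/fl values. The median difference over the 70 clusters was 0.01, and 33 lay below 0 (49.6% of all clusters). At the unadjusted threshold 2 histone clusters were lower (3.35% of all clusters) and 1 was higher (2.97% of all). After adjustment 0 passed, as did 0 of all 25341 clusters (0% in each direction), and the smallest adjusted p of a member was 0.668. Groups did not overlap in 3 clusters in the lower direction (6.24% of all) and in 3 in the higher (5.83% of all). The 3 arrays of Nfat5IEC-KO mice deviated by 0.04, -0.01 and -0.04 on average over the members.

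The higher cluster was H2aw, a Hist3 gene, at 4.22, 3.93 and 4.21 on Nfat5fl/fl arrays and 5.21, 4.62 and 4.86 on Nfat5IEC-KO arrays, a log2 difference of 0.78 (SE 0.16, adjusted p = 0.668) without overlap. The lower ones were H2bc21, at 5.95 ± 0.17 and 5.63 ± 0.07 (SD, n = 3 each, difference -0.31, adjusted p = 0.769), and the dim H2ac23 cluster of 10 genes (17285677, difference -0.32, adjusted p = 0.783). Without Nfat5fl/fl replicate 2 the lower clusters numbered 6, and without Nfat5fl/fl replicate 3 the higher ones numbered 7. For the clusters that read lower in S-IECs the L-IEC values were steady. H2ac10 stood at 10.57 ± 0.01 and 10.63 ± 0.01 (SD, n = 3 each), H1f5 at 7.82 ± 0.05 and 7.87 ± 0.22 (SD, n = 3 each), and H2bc12 at 7.13 ± 0.05 and 7.16 ± 0.24 (SD, n = 3 each). The 26 clusters lower in S-IECs had L-IEC differences from -0.22 to 0.28 with a median of -0.0018, and 0 of the 26 were lower in L-IECs at the unadjusted threshold.

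**Figure D3:**
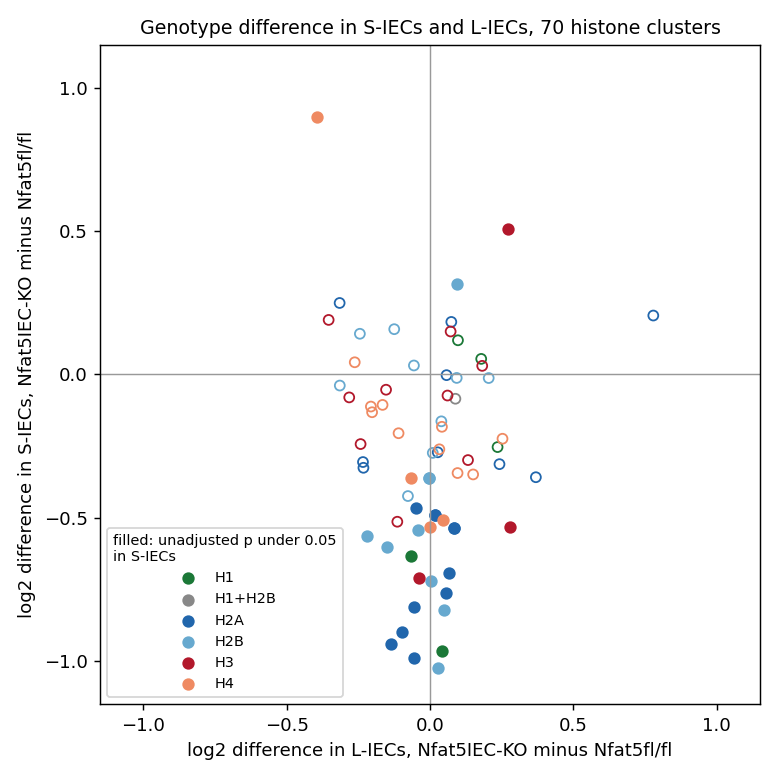
The log2 difference between the genotypes in S-IECs (y axis) against that in L-IECs (x axis) for the 70 histone clusters, coloured by class. Filled points passed the unadjusted threshold of 0.05 in S-IECs, and 26 of them lie below 0 on the y axis, with x values between -0.22 and 0.28.

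The difference between the tissues was tested itself, as the S-IEC genotype difference minus the L-IEC genotype difference on all 12 arrays. It was below 0 in 52 of 70 histone clusters (48.4% of all clusters), with a median of -0.32, against 0.01 over all clusters. At the unadjusted threshold 23 were below 0 (6.3% of all) and 3 above (4.53% of all), the 3 being the 13-gene H4c17 cluster (17285846, 1.29), an H2ac23 cluster of 10 genes (17285677, 0.56) and H2bc1 (0.39), all dim. After adjustment 0 histone clusters passed, as did 0 of all clusters (0% in each direction). The smallest adjusted p was 0.257, for H1f5 (-1.01, SE 0.28). H2bc12 (-1.05, adjusted p = 0.263), H2ac10 (-0.82, adjusted p = 0.263), H2bc3 (-0.87, adjusted p = 0.282), the H2bc6 cluster of 12 genes (17285691, -0.72, adjusted p = 0.282) and the H4c17 cluster of 6 genes (-0.53, adjusted p = 0.288) followed. Without the S-IEC array of Nfat5IEC-KO replicate 2, 2 clusters passed the adjusted threshold, H2ac10 (-1.02, adjusted p = 0.0476) and the H2ac22 cluster of 10 genes (17291012, -1.01, adjusted p = 0.0352). In that run 239 of all 25341 clusters passed. Without S-IEC Nfat5fl/fl replicate 2 the count at the unadjusted threshold was 15.

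S-IECs and L-IECs were then compared within each genotype. In Nfat5fl/fl mice, 20 histone clusters were lower in S-IECs at an adjusted threshold of 0.05 (10.4% of all clusters) and 0 were higher (7.2% of all). At the unadjusted threshold 28 were lower (16.3% of all) and 1 was higher (12.6% of all), and 60 of the 70 lay below 0 (50.1% of all), with a median of -0.25. Groups did not overlap in 29 clusters in the lower direction (18.9% of all) and 2 in the higher (15.2% of all). H3 and H4 held 10 of the 20, and 4 of 12 H3 and 6 of 14 H4 clusters passed, against 3 of 20 H2A and 4 of 18 H2B clusters. All 4 of the H3 clusters name the same 8 genes. Of the 6 H4 clusters, 17285846, 17291019 and 17291208 name the same 13 genes, so the class counts hold repeated readings of shared gene sets. By the methods' t-test 9 of the 70 histone clusters passed the adjusted threshold, where 3089 of all 25341 clusters did.

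The widest tissue difference was that of the H4c17 cluster of 13 genes (17285846), at 2.99, 2.32 and 2.90 in S-IECs and 5.95, 5.12 and 6.29 in L-IECs of Nfat5fl/fl mice. The log2 difference was -3.05 (SE 0.29, adjusted p = 9.4e-05), and the groups stood far apart. The S-IEC values lay below the median cluster of the table (4.53), and the other 3 clusters that name the same 13 genes had differences of -0.17 (17291180), -1.17 (17291019) and -1.22 (17291208). Another H4 gene, H4c8, had 4.23 ± 0.14 and 5.34 ± 0.21 (SD, n = 3 each, difference -1.11, adjusted p = 0.00047). Of the H1 clusters, H1f2 was lower in S-IECs by a log2 difference of -0.80 (adjusted p = 0.0030) and H1f3 by -0.57 (adjusted p = 0.0074). H1f5 (0.12, adjusted p = 0.717) and H1f1 (0.14, adjusted p = 0.617) overlapped between the tissues. The H3c15 cluster of 8 genes with platform number 17408015 had a difference of -1.39 (adjusted p = 0.00080), and H2bc21 one of -0.83 (adjusted p = 0.0030). The cluster higher in S-IECs at the unadjusted threshold was H2bc12, at 7.63 ± 0.36 and 7.13 ± 0.05 (SD, n = 3 each, difference 0.50, adjusted p = 0.0797).

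In Nfat5IEC-KO mice the count was larger. At the adjusted threshold 47 histone clusters were lower in S-IECs (14.7% of all clusters) and 0 higher (10% of all), with a median of -0.65 and 64 of 70 below 0 (47.1% of all). At the unadjusted threshold 53 were lower (19.7% of all) and 0 higher (16.3% of all). The groups did not overlap in 49 clusters in the lower direction (21.8% of all) and in 1 in the higher (18.8% of all). By the methods' t-test 14 of the 70 histone clusters passed the adjusted threshold, where 4393 of all 25341 clusters did. With 1 array left out 34 to 47 histone clusters did, where 4760 to 6287 of all did. The largest difference was that of the H3c13 cluster of 8 genes numbered 17291183, at 4.64, 4.19 and 4.30 in S-IECs and 6.39, 6.18 and 6.09 in L-IECs. Its difference was -1.84 (SE 0.15, adjusted p = 2.2e-05), against -1.03 (adjusted p = 0.0060) in Nfat5fl/fl mice. H1f2 kept a like difference of -0.92 (adjusted p = 0.00018), and for H1f5 it was -0.89 (adjusted p = 0.0079). By class 4 of 5 H1, 14 of 20 H2A, 11 of 18 H2B, 7 of 12 H3 and 10 of 14 H4 clusters passed. In both genotypes 16 clusters passed, in Nfat5fl/fl alone 4, and in Nfat5IEC-KO alone 31, that is, 16 of 20 and 16 of 47. These comparisons use the same arrays as the genotype comparisons, and the change of the tissue difference with genotype is the test between the tissues given above.

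**Figure D4:**
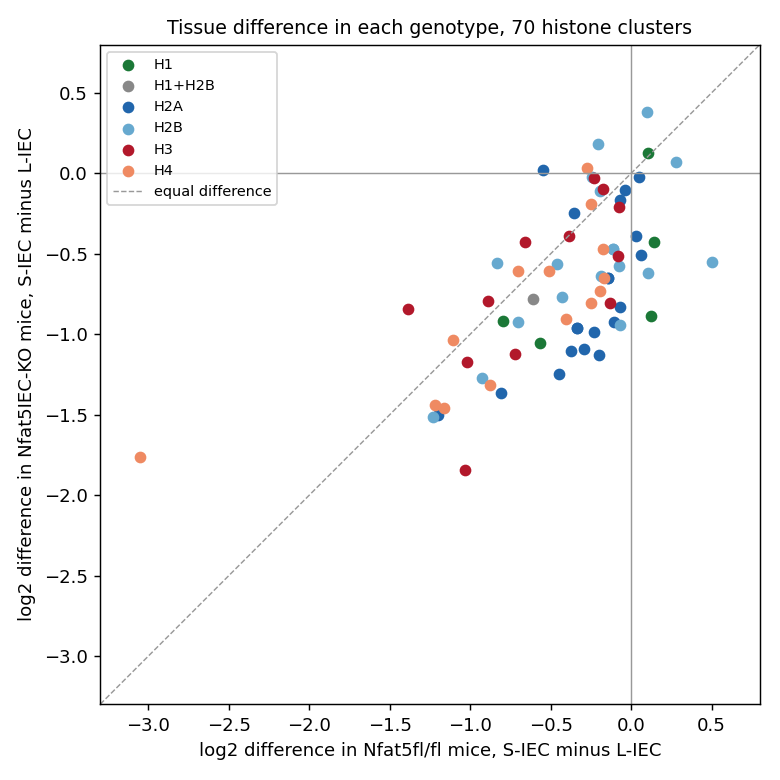
The log2 difference between S-IECs and L-IECs in Nfat5IEC-KO mice (y axis) against that in Nfat5fl/fl mice (x axis) for the 70 histone clusters, with a dashed line of equal differences. Of the points 52 lie below the line, and the point at the far left is the 13-gene H4c17 cluster (-3.05 and -1.76).

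Genes that act with the clustered histones were counted in the same S-IEC comparison. In it 8.23% of all clusters were lower and 5.81% higher at the unadjusted threshold. Of clusters above the median cluster of the table, 12.9% were lower and 6.35% higher. After adjustment 0 genes of any list passed in S-IECs, here or below. Histone transcription and mRNA processing (13 of 16 listed genes with a cluster of their own) had 2 lower, 0 higher and a median of -0.18. The 2 were Cdk2, the S-phase kinase that activates histone transcription through NPAT (difference -0.36, adjusted p = 0.191), and Cpsf2, a subunit of the cleavage complex (-0.31, adjusted p = 0.289). Slbp, which binds the stem-loop, had -0.24 (adjusted p = 0.441) and Npat -0.24 (adjusted p = 0.568). The list of replacement histones holds variants outside these clusters, many of them made outside S phase and with poly(A) tails, but not all. It had 2 of 8 measured genes of 11 lower, 0 higher and a median of -0.24. The lower genes were Cenpa, the H3 variant of the centromere (-0.47, adjusted p = 0.143), and H2ax, the H2A variant that is phosphorylated at DNA breaks (-0.89, adjusted p = 0.17). H2az1, H2az2, H2aj, Macroh2a1, Macroh2a2 and H1f10 did not pass, so the list as a whole is not read as lower. Histone chaperones and chromatin assembly factors had 9 of 18 measured genes of 20 lower, 0 higher and a median of -0.35. Ipo4, an importin that carries histones into the nucleus, had the smallest p of that list (-0.67, adjusted p = 0.121), followed by Anp32e, a chaperone of H2A.Z (-0.66, adjusted p = 0.13). In L-IECs 0 of the genes of these 3 lists passed the unadjusted threshold in either direction, and their medians were -0.03, -0.06 and 0.03.

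The machinery of the cell cycle read lower on the same arrays. Of 36 measured DNA replication genes of 38, 19 were lower (8.23% of all clusters) and 0 higher (5.81% of all) at the unadjusted threshold. Their median was -0.35, and among the lower ones were Rpa3 (-0.72, adjusted p = 0.138) and Mcm5 (-0.78, adjusted p = 0.142). Of 27 measured mitosis genes of 29, 18 were lower and 0 higher, with a median of -0.52, among them Smc2 (-0.81, adjusted p = 0.13) and Mki67 (-0.87, adjusted p = 0.137). In L-IECs 1 replication gene was lower and 1 higher, and 0 mitosis genes were lower and 1 higher, with medians of 0.02 and 0.06. Averaged over the list, the mitosis genes lay at -0.74, -0.23 and -0.69 on S-IEC Nfat5IEC-KO replicates 1, 2 and 3. The replication genes lay at -0.47, -0.13 and -0.44. On Nfat5fl/fl replicates 1, 2 and 3 the mitosis genes lay at -0.238, 0.04 and 0.198, so the groups overlapped. The replication genes lay at -0.105, 0.034 and 0.071 there. Nfat5IEC-KO replicate 2 was again the closest to Nfat5fl/fl, as in the histone clusters.

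Markers of cell types moved on these arrays too, where 8.23% of all clusters were lower and 5.81% higher at the unadjusted threshold. Paneth cells, the antimicrobial cells of the crypt base, had 9 of 9 measured markers of 10 lower, with a median of -1.13 and a mean marker level of 10.29 to 10.62 on Nfat5fl/fl arrays and 9.05 to 10.09 on arrays labelled Nfat5IEC-KO. Stem cell markers had 8 of 12 lower (median -0.56, mean level 7.17 to 7.49 and 6.70 to 7.22), among them Lgr5 (-0.88, adjusted p = 0.152) and Cdca7 (-0.71, adjusted p = 0.138). Goblet cell markers had 4 of 8 lower (median -0.42, mean level 10.52 to 10.74 and 9.80 to 10.53). Markers of absorptive enterocytes had 7 of 10 higher and 0 lower (median 0.30, mean level 10.16 to 10.42 and 10.60 to 10.85), with Fabp1 at 1.39 (adjusted p = 0.134). Their part in the histone readings was not tested.

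Colonocyte markers had 3 of 6 lower in S-IECs (median -0.29), with a mean level of 7.49 to 8.66 on Nfat5fl/fl arrays and 7.49 to 7.60 on arrays labelled Nfat5IEC-KO. Markers of the epithelium had 0 of 6 past the threshold (mean level 10.88 to 10.91 and 10.85 to 10.97), and those of T cells and intraepithelial lymphocytes had 1 of 10 lower (5.07 to 5.56 and 5.16 to 5.66). B and plasma cell, myeloid, and stromal and endothelial lists had 0 of 6, 0 of 7 and 0 of 8 past the threshold. Of the immediate early genes of dissociation 1 of 7 was higher. RNAs that carry no poly(A) tail and are not histone mRNAs had 1 of 5 measured genes of 8 lower, Rny1 (-0.48, adjusted p = 0.356), with a median of 0.04, and Rn7sk stood at a difference of 0.04 (adjusted p = 0.9).

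**Figure D5:**
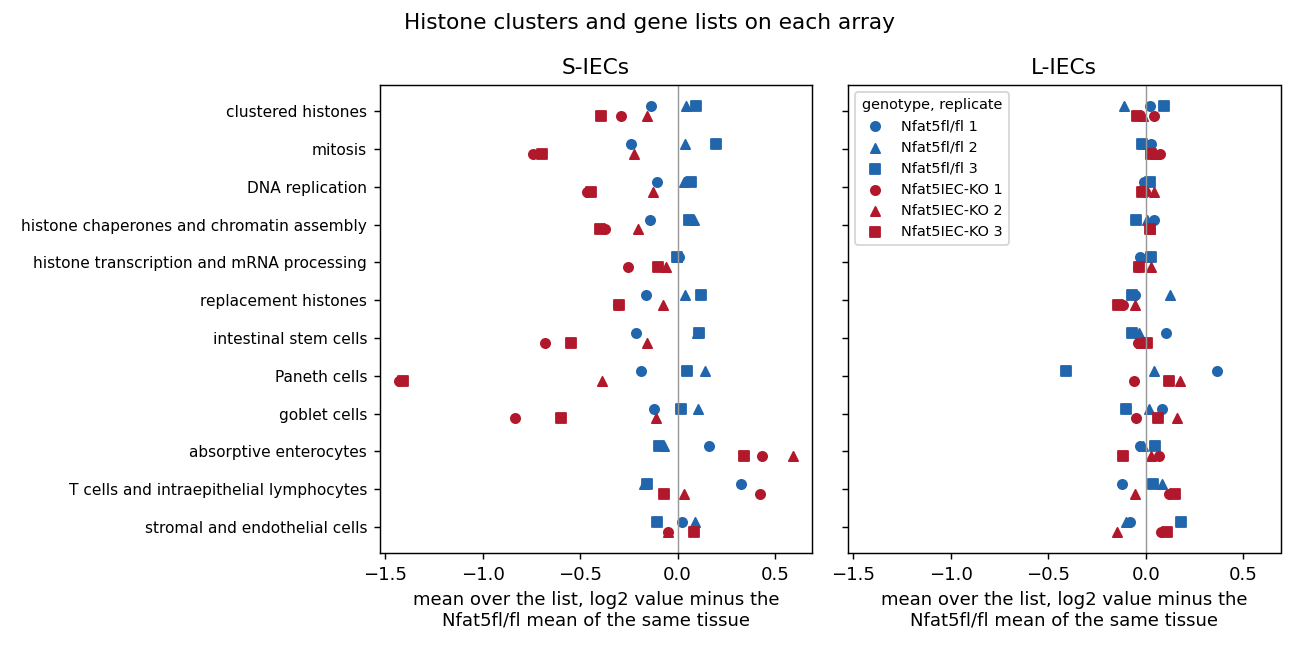
Mean over the histone clusters and over each gene list on every array, as log2 value minus the Nfat5fl/fl mean of the same tissue, for S-IECs (left) and L-IECs (right). In S-IECs the arrays labelled Nfat5IEC-KO lie left of all Nfat5fl/fl arrays for the histone clusters (-0.29, -0.16 and -0.39) and Paneth cells (-1.43, -0.39 and -1.41). They lie to the right for absorptive enterocytes (0.43, 0.59 and 0.34). For mitosis (-0.74, -0.23 and -0.69) the groups overlap, with Nfat5fl/fl replicate 1 at -0.238 and Nfat5IEC-KO replicate 2 at -0.226. Nfat5IEC-KO replicate 2 (triangle) is the closest of its group to 0 for histone clusters, mitosis and Paneth cells.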

How the data were processed

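The authors hybridised RNA of each sample to 1 Affymetrix Mouse Gene 2.0 ST array and deposited log2 values per transcript cluster, made, per the labels, in Transcriptome Analysis Console against mm10. No source used here names its version or how it normalized. No authors' comparison columns were used, and 0 array columns matched no sample. Older symbols came from the RefSeq gene table of GRCm38.p6 through Entrez identifiers, and of 70 such genes 69 have a cluster. Promoters came from RefSeq on the same build.

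Differences were fitted in R 4.3.3 with limma 3.58.1 (lmFit, eBayes), on the 6 arrays of a tissue for genotype (Nfat5IEC-KO minus Nfat5fl/fl), on the 6 of a genotype for tissue (S-IEC minus L-IEC), and on all 12 for the difference between the tissues. P-values were adjusted by Benjamini-Hochberg over the 25341 clusters with a symbol, with no filter on dim clusters, and the fits were tested on simulated data. All tests were two-sided. A gene of a list was used where it has a cluster of its own.

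The named members were, per class, the 3 clusters with the smallest p between the genotypes in S-IECs, the 1 in L-IECs and the 2 between the tissues in Nfat5fl/fl, with every Hist2, Hist3 and Hist4 cluster and the testis genes. For each list they were the 2 genes with the smallest p. Others, such as H2bc4, H2ac11, H2ac22, Slbp, Npat and Rn7sk, were picked for naming with their values in view. The members and lists were chosen with earlier results of these data known. Alternatives were the replicate block, all 12 arrays in 1 fit, eBayes with trend and robust, the methods' t-test, array weights, quantile normalization, median centring, leaving out dim clusters, testing clusters without a symbol too, members with 1 symbol, and leaving out each array. Counting clusters of the same values once was added after seeing the data.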

Additional observations from a re-analysis of the deposited data

How the results depend on the processing

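No named cluster past the unadjusted threshold changed sign under an alternative, but several alternatives leave the log2 difference as it is and could not change a sign. These are the fit of all arrays together, trend and robust, the methods' t-test, the filter and testing clusters without a symbol. The clusters counted had also passed the unadjusted threshold, so a kept sign is no separate support. The methods' t-test lost 9 of the 18 named clusters past the unadjusted threshold in S-IECs. Of 2735 values of single clusters under the alternatives, 2644 kept their side of the adjusted threshold, 61 lost it and 30 gained it, and of 360 summary values 314 were kept. The cause of each difference below was not tested unless fewer clusters or arrays were used.

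For the S-IEC genotype difference, lower clusters (26) numbered 10 by the methods' t-test and 11 among members with 1 symbol, and 18 to 31 with 1 array left out. Higher ones (3) numbered 1 after the filter on dim clusters and 0 among members with 1 symbol. Past the adjusted threshold (0) were 8 with all 12 arrays in 1 fit, all of them lower (571 of all 25341 clusters, against 2), 1 with trend and robust, H1f5 (adjusted p = 0.0482, 480 of all), and 0 to 1 with 1 array left out. The t-test called 0 of all clusters and the filter 40 of 13984, with clusters without a symbol included 5 passed of 41345. The median (-0.286) was -0.488 after the filter. For L-IECs, lower clusters (2) numbered 0 with all 12 arrays, 1 with trend and robust, after the filter, over every cluster and among members with 1 symbol, and 1 to 6 with 1 array left out. Higher ones (1) numbered 2 with trend and robust, 3 by the t-test, 2 with array weights and 1 to 7 with 1 array left out, and trend and robust called 13 of all clusters after adjustment. For the difference between the tissues, clusters below 0 (23) numbered 10 among members with 1 symbol and 15 to 28 with 1 array left out. Those above 0 (3) numbered 0 after the filter, 1 over every cluster and among members with 1 symbol, and 1 to 3 with 1 array left out. Past the adjusted threshold (0) were 0 to 2 with 1 array left out, and without S-IEC Nfat5IEC-KO replicate 2 239 of all clusters passed there, and 226 in the S-IEC comparison. Trend and robust called 84 of all, and the filter 6. The median (-0.321) was -0.451 after the filter and -0.209 among members with 1 symbol.

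For the tissue difference in Nfat5fl/fl, the lower clusters (28) numbered 10 among members with 1 symbol, the higher one (1) was lost by the t-test (0) and with 1 array left out (0 to 1), and those past the adjusted threshold (20) numbered 9 by the t-test and 7 among members with 1 symbol. In Nfat5IEC-KO, lower clusters (53) numbered 22 among members with 1 symbol, higher ones (0) 0 to 1 with 1 array left out, and those past the adjusted threshold (47) 14 by the t-test, 18 among members with 1 symbol and 34 to 47 with 1 array left out. The median (-0.649) was -0.828 after the filter and -0.804 to -0.633 with 1 array left out, the first without S-IEC Nfat5IEC-KO replicate 2.

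Deviations of same-numbered arrays correlated between -0.04 and 0.10. With 3 arrays in a group this cannot decide whether S-IECs and L-IECs of the same number came from the same mouse. The main fits treated all arrays as independent. With the replicate block the lower clusters in S-IECs numbered 27, with 0 past the adjusted threshold, and the tissue comparisons had 19 and 46 past it.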
